A study of Mus musculus with 6 samples.

Results

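The 9 genes described here encode the core of the intrinsic, or mitochondrial, pathway of apoptosis: Bax, Bak1, Bcl2, Bcl2l1, Mcl1, Bcl2l11, Bbc3, Apaf1 and Casp9. They were chosen by symbol from a table of 30042 genes, and all 9 were found and reached 1 RPKM at some age. RPKM is reads per kilobase of gene model, scaled to the depth of the library, so levels of different genes can be set side by side per length. The table holds 6 libraries of whole retina from wild-type mice of strain 129/Sv; C57/BL6J, with 1 library per age. The ages were day 16.5 of embryonic life, written E16.5, and days 1, 3, 7, 14 and 28 after birth, written P1 to P28. The series title concerns mice lacking the thyroid hormone deiodinases, and the 6 libraries used here are all wild type. Sex, and how many animals went into a library, are not stated in the labels.

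In this pathway the pro-survival proteins Bcl2, Bcl-xL (from Bcl2l1) and Mcl1 hold back the effectors Bax and Bak, which otherwise form pores in the outer mitochondrial membrane. BH3-only proteins such as Bim (from Bcl2l11) and Puma (from Bbc3) bind the pro-survival proteins and free the effectors. Cytochrome c released through the pores assembles with Apaf1 into the apoptosome, which activates caspase-9, and caspase-9 in turn cleaves the executioner caspases. In the mouse retina, developmental death removes ganglion cells around birth and other neurons over the first postnatal weeks, and mice lacking Bax keep many neurons that would have died.

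The values of the 9 genes were lower in the mature retina. In 9 of 9 genes both P14 and P28 lay below each of E16.5, P1 and P3, an order that 44.5% of the 15272 tested genes also had. In the test of a straight line over the 6 ages, 7 of the 9 genes fell and 0 rose, where 29.9% of all tested genes fell and 15.2% rose. Both effectors (Bax and Bak1) and both BH3-only genes (Bcl2l11 and Bbc3) fell, as did 2 of 3 pro-survival genes (Bcl2 and Mcl1) and 1 of 2 apoptosome genes (Apaf1). Bcl2l1 and Casp9 did not pass. The median slope was -0.20 log2 units per age step over the 9 genes and -0.06 over all tested genes. The slopes are of log2(RPKM + 1), tested with limma and Benjamini-Hochberg adjustment over all tested genes at a threshold of 0.05. With 1 library per age, the p-values reflect the spread around a line between ages and not between retinas of 1 age.

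How many of the 9 genes passed depended on how the libraries were put on 1 scale. After median-of-ratios rescaling 3 genes fell (Bax, Bak1 and Apaf1) and 0 rose, beside 22.3% and 19.9% of all tested genes. With a common total without the 50 highest genes 1 fell (Bax) and 0 rose, beside 17.6% and 21.1%. No slope changed its sign. As deposited, the median difference of all tested genes between P28 and E16.5 was -0.29 on the log2 scale, against -0.07 and 0.05 under these rescalings, so that part of each fall below is shared with the typical gene. The largest difference from E16.5 to P28 was that of Bbc3, at 1.42 log2 units lower as deposited and 1.08 lower under the second rescaling. Without P14, 2 of the 9 genes fell, beside 19.3% of all tested genes. Without P28 it was 2, beside 21.6%, and without P1 it was 3, beside 24%, so that without P14 or P28 the share of the 9 genes was near that of all genes.

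**Figure D1:**
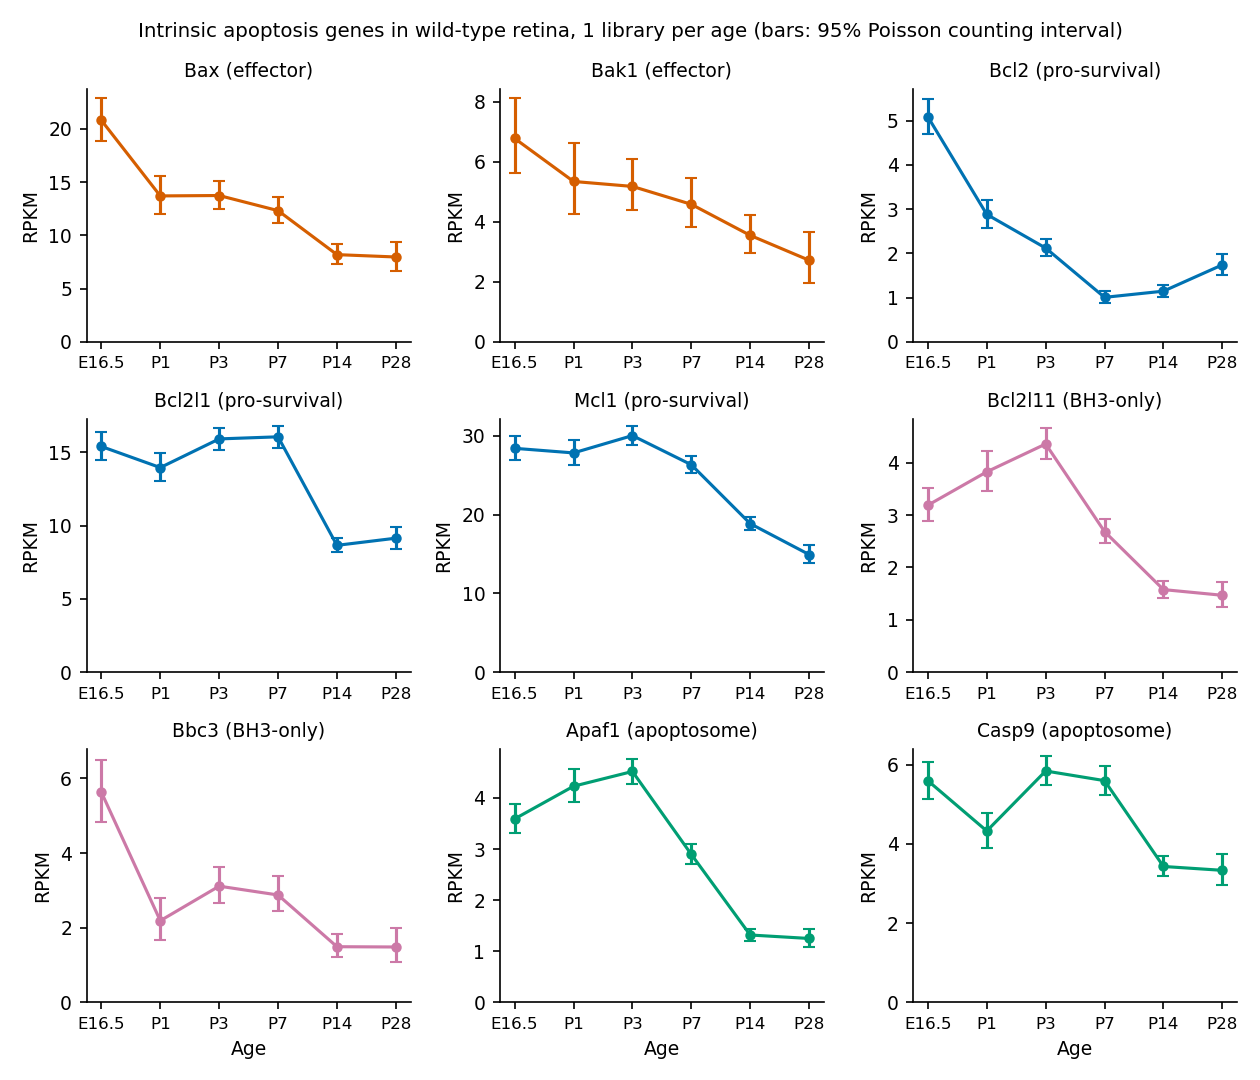
RPKM of each of the 9 genes at the 6 ages (1 library per age), with bars for the 95% Poisson interval of the reads, which covers counting error only. Bax, Bak1, Bcl2 and Bbc3 were highest at E16.5, Bcl2l11, Apaf1, Mcl1 and Casp9 at P3 and Bcl2l1 at P7, and in every panel P14 and P28 lie below E16.5, P1 and P3.

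RPKM values of all 9 genes resolved into whole reads, from 42 reads for Bak1 at P28 to 2486 for Mcl1 at P3, so a counting interval could be given for each value. The deepest library, P14, was estimated at 28796156 reads, 2.26 times the shallowest, P1, at 12746497. Markers of the retina were present: the summed RPKM of 5 rod markers went through 43.1, 74.0, 156, 857, 5499 and 7582 over the ages from E16.5 to P28, and that of 7 retinal progenitor markers through 1265, 1219, 679, 239, 100.2 and 102. Markers of tissue next to the retina also varied between libraries. The sum of 4 erythroid markers was 131 RPKM at E16.5 and between 2.29 and 13.7 later. The sum of 5 lens markers stood high in 3 libraries (24.7 in E16.5, 14.3 in P1, 25.6 in P28) and below 1 in the others, with Crybb2 and Lim2 below 1 RPKM at every age. Markers of microglia, which clear dying cells, summed to between 5.07 (P28) and 11.9 RPKM (P7) over 7 genes, with Aif1 below 1 RPKM at every age. The part of such cells in the levels below was not tested. In whole tissue, fewer cells of a type and less RNA per cell cannot be told apart.

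Both effectors fell. Bax, the pore-forming protein on which developmental death of retinal ganglion cells depends, was 20.8 (E16.5), 13.7 (P1), 13.7 (P3), 12.3 (P7), 8.195 (P14) and 7.97 RPKM (P28). The slope was -0.25 ± 0.05 (SE) per step on the log2 scale, with an adjusted p of 0.00644. Most of the decline lay in a pair of steps. P1 was 0.659 times E16.5 (95% counting interval 0.558 to 0.776) and P14 was 0.665 times P7 (0.571 to 0.773). The other steps lay within counting error. P3 was 1.00 times P1 (0.854 to 1.18), P7 was 0.897 times P3 (0.78 to 1.03) and P28 was 0.973 times P14 (0.790 to 1.19). Bax passed under each of 13 alternative settings, with adjusted p between 0.00505 and 0.0364.

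Bak1, the second effector, was 6.78 (E16.5), 5.35 (P1), 5.18 (P3), 4.58 (P7), 3.55 (P14) and 2.72 RPKM (P28). It was the one gene of the 9 with a lower value at every step, an order seen in 5.95% of tested genes. It fell (slope -0.20 ± 0.04, adjusted p = 0.00747), although no step alone was large: the P1, P3, P7 and P28 values each lay within the counting error of the age before, and P14 was 0.774 times P7 (0.600 to 0.999). The fall did not pass without P28 (adjusted p = 0.0509) or with that common total (adjusted p = 0.0610). The level of Bax per length was between 2.31 and 3.07 times that of Bak1 at every age, and the counting intervals of these 6 ratios overlapped.

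The 3 pro-survival genes followed different courses. Mcl1, whose protein turns over quickly and restrains Bak, was the highest of the 9 genes at every age. It was 28.4 (E16.5), 27.8 (P1), 30.01 (P3), 26.3 (P7), 18.8 (P14) and 14.9 RPKM (P28). It fell (slope -0.18 ± 0.06, adjusted p = 0.0371). On the deposited scale nearly all of the difference came after P3. P28 was 0.497 times P3 (0.456 to 0.542), while P3 was 1.06 times E16.5 (0.990 to 1.13). The level course from E16.5 to P3 depends on that scale, since the common total factors of these libraries differ. The call did not hold without P1, P3, P14 or P28 (adjusted p between 0.0537 and 0.232).

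Bcl2l1, which encodes Bcl-xL, the main pro-survival family member of many mature neurons, was 15.4 (E16.5), 13.95 (P1), 15.9 (P3), 16.1 (P7), 8.65 (P14) and 9.14 RPKM (P28). Its values lay on 2 levels, with the ages up to P7 at 13.95 RPKM or more and both later ages at 9.14 RPKM or less. P14 was 0.539 times P7 (0.5001 to 0.580), and P28 was 1.06 times P14 (0.953 to 1.17). The slope over all ages did not pass (-0.15 ± 0.06, adjusted p = 0.0799), nor did it under any of 13 alternatives.

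Bcl2, the founding member of the family, had a course of its own. It was 5.09 (E16.5), 2.88 (P1), 2.12 (P3), 1.007 (P7), 1.15 (P14) and 1.74 RPKM (P28). P7 thus had the lowest value, at 0.475 times P3 (0.402 to 0.559), and P28 was 1.73 times P7 (1.42 to 2.10). P7 and P14 did not differ beyond counting error (interval of P14 over P7, 0.954 to 1.363). Over the series it fell (slope -0.26 ± 0.08, adjusted p = 0.0299), but the call did not hold without E16.5 (slope -0.15, adjusted p = 0.218), P1 or P14, with age in log2 days (adjusted p = 0.105), or with either other filter on low values (adjusted p of 0.0602 and 0.0649). Its curvature, the quadratic term that is positive when middle ages are low, was 0.73 ± 0.19 (unadjusted p = 0.00664, adjusted p = 0.164 with limma). By that test 0 of the 9 genes and 0 of 15272 tested genes (0.00%) passed the adjusted threshold, while 1 of the 9 and 2858 of all had an unadjusted p under 0.05.

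The summed level of 6 ganglion cell markers, all above 1 RPKM at some age, was 559 (E16.5), 238 (P1), 117 (P3), 144 (P7), 191 (P14) and 160 RPKM (P28). Its part in the level of Bcl2 was not tested. An annotated gene on the other strand, D630008O14Rik, overlaps an exon of Bcl2 in a later reference annotation than the authors’ build, and reads of the pair could not be separated, since no source used here states whether counting used strand. The same limit holds for Bak1 (Ggnbp1) and Casp9 (Cela2a), and exons of Bax overlap Gm45808 on the same strand.

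The 2 BH3-only genes differed early and met late. Bbc3, whose protein Puma is a textbook target of p53, was 5.63 (E16.5), 2.19 (P1), 3.11 (P3), 2.88 (P7), 1.49 (P14) and 1.48 RPKM (P28). The E16.5 value stood apart from all later ones. P1 was 0.389 times E16.5 (0.287 to 0.520), a difference of 1.06 units of log2(RPKM + 1) downward. Among the 45 differences between neighbouring ages of the 9 genes, it was the one that reached 1 such unit. The added 1 shrinks steps of low genes. Bcl2 at P7 was 0.475 times P3 and Apaf1 at P14 was 0.455 times P7, yet these steps were -0.64 and -0.75 on that scale. Of all tested genes 2.23% were lower and 1.05% higher by as much at P1 than at E16.5. At the later steps the shares lower and higher were 3.52% and 1.94% (P3 against P1), 3.54% and 2.36% (P7 against P3), 2.40% and 2.92% (P14 against P7), and 0.530% and 1.19% (P28 against P14), with 0 of the 9 genes in each. P1 was also the shallowest value of the gene before P28, at 63 reads, and P3 was 1.42 times P1 (1.06 to 1.93). Bbc3 fell (slope -0.24 ± 0.07, adjusted p = 0.0272), and without E16.5 the slope was -0.14 and did not pass (adjusted p = 0.193). The call was also lost without P14 (adjusted p = 0.0835), without P28 (0.0796) and with no filter on low values (0.0549).

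Bcl2l11, whose protein Bim binds all the main pro-survival members, was 3.19 (E16.5), 3.83 (P1), 4.36 (P3), 2.68 (P7), 1.58 (P14) and 1.47 RPKM (P28). In contrast to Bbc3 its value at P3 was 1.37 times that at E16.5 (1.21 to 1.55), and the decline began after P3, with P7 at 0.616 times P3 (0.551 to 0.688) and P14 at 0.587 times P7 (0.513 to 0.672). It fell over the series (slope -0.20 ± 0.06, adjusted p = 0.0355), which did not hold without P1 (0.0900), P14 (0.108) or P28 (0.157), or with no filter on low values (0.0683). At P14 and P28 the counting intervals of Bbc3 and Bcl2l11 overlapped.

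Apaf1, the scaffold of the apoptosome, had a course much like that of Bcl2l11. It was 3.59 (E16.5), 4.23 (P1), 4.52 (P3), 2.90 (P7), 1.32 (P14) and 1.25 RPKM (P28). P3 was 1.26 times E16.5 (1.15 to 1.38), and P14 was 0.292 times P3 (0.262 to 0.324). It fell (slope -0.26 ± 0.07, adjusted p = 0.0182), which did not hold without P1, P14 or P28 (adjusted p between 0.0556 and 0.0925). Over the 6 ages the Pearson correlation of Apaf1 with Bcl2l11 was 0.99, the highest among pairs of the 9 genes. The lowest was that of Casp9 with Bcl2, at 0.34. These points share the 6 libraries, their depth and their scaling, and the correlations are descriptions.

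Casp9, the initiator caspase that Apaf1 activates, was 5.60 (E16.5), 4.33 (P1), 5.84 (P3), 5.60 (P7), 3.43 (P14) and 3.33 RPKM (P28). Apart from the low P1 value, at 0.773 times E16.5 (0.677 to 0.882), its values lay on an early and a late level, with P14 at 0.613 times P7 (0.554 to 0.677). Its slope did not pass (-0.11 ± 0.06, adjusted p = 0.142), nor did it under any of 13 alternatives. Casp9 and Bcl2l1, the genes that did not pass, had alike courses (r = 0.96 over the 6 ages).

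For each of the 9 genes, the tested gene with the most alike course was found by Pearson r of log2(RPKM + 1) over the 6 libraries, among 7381 or 7382 genes whose range reached 1 log2 unit. These were Bcl11a for Bax, Evl for Bak1, Gcat for Bcl2, Haus7 for Bcl2l1, Yeats2 for Mcl1, Slc25a13 for Bcl2l11, Fbxl19 for Bbc3, Mybl1 for Apaf1 and Jun for Casp9. The r lay between 0.99 (Bcl2l1 and Casp9) and 1.00 (Apaf1). Each is the highest of 7381 or 7382 values over 6 points, so an r near 1 comes from the search itself. How many genes had r above 0.95 differed widely, with 614 for Bak1 and 536 for Bax against 29 for Casp9 and 53 for Bcl2l1. Jun, which encodes a transcription factor and is itself on the pathway list, did not pass the slope test (adjusted p = 0.0945).

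The libraries carry 2 forms of title, one shared by E16.5, P1 and P28 and the other by P3, P7 and P14. All 9 genes had negative slopes within both sets of 3 libraries, as did 54.4% of all tested genes. They lay between -0.23 (Bax and Apaf1) and -0.11 (Casp9) over E16.5, P1 and P28, and between -0.63 (Apaf1) and -0.22 (Bak1) over P3, P7 and P14. With a term for the form of title, 7 of the 9 genes fell, beside 31.6% of all tested genes.

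Between the ends of the series, 5 of the 9 genes were lower at P28 than at E16.5 by at least 1 unit of log2(RPKM + 1). So were 21.9% of tested genes, and 0 of the 9 were higher by as much, against 11.3%. Bbc3 at P28 was 0.263 times E16.5 (0.184 to 0.369), Bcl2 0.342 (0.291 to 0.401), Apaf1 0.348 (0.296 to 0.408), Bax 0.383 (0.313 to 0.466) and Bak1 0.401 (0.275 to 0.575). The remaining 4 were at 0.460 (Bcl2l11), 0.525 (Mcl1), 0.594 (Bcl2l1) and 0.596 times (Casp9). The counting intervals of the 5 lowest ratios overlapped each other, and those of Bcl2l1 and Casp9 lay above all 5 except that of Bak1.

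**Figure D2:**
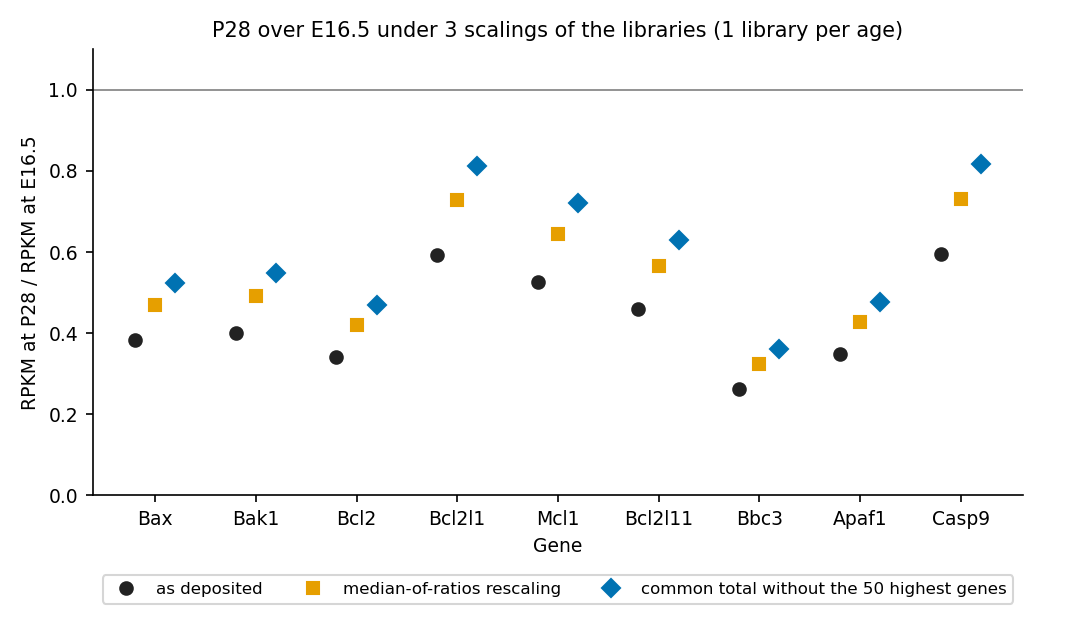
RPKM at P28 divided by RPKM at E16.5 for each of the 9 genes (1 library per age), as deposited and after 2 rescalings of the libraries. All points lie below 1, from 0.263 (Bbc3, as deposited) to 0.816 (Casp9, common total without the 50 highest genes).

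Ratios of genes within a library do not depend on how libraries are scaled. The ratio of Bax to Bcl2 was 4.09 (E16.5), 4.76 (P1), 6.48 (P3), 12.2 (P7), 7.15 (P14), then 4.58 (P28). P7 stood highest, with a counting interval of 10.3 to 14.5 that lay above those of the other ages, and P28 (3.66 to 5.71) overlapped E16.5 (3.61 to 4.63). The ratio of Bax to Bcl2l1 moved much less. It read 1.35 (E16.5), 0.983 (P1), 0.864 (P3), 0.768 (P7), 0.948 (P14), then 0.873 (P28), and its highest value was 1.76 times its lowest. The counting intervals of these ends, 1.20 to 1.52 at E16.5 and 0.686 to 0.858 at P7, did not overlap.

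Within the pro-survival pair, Bcl2 stood at 0.331 times Bcl2l1 (E16.5), 0.207 (P1), 0.133 (P3), 0.0627 (P7), 0.133 (P14), then 0.191 (P28), a 5.27-fold range with its lowest point at P7. The ratio of Bcl2l11 to Bcl2 ran the other way, 0.627 (E16.5), 1.33 (P1), 2.05 (P3), 2.67 (P7), 1.37 (P14), then 0.843 (P28). Both ratios turn at P7, the age with the lowest value of Bcl2, although Bcl2 at P7 and P14 did not differ beyond counting error. From P7 to P14 the other gene of each ratio fell. Bcl2l1 at P14 was 0.539 times P7 (0.5001 to 0.580) and Bcl2l11 0.587 times (0.513 to 0.672). In the apoptosome, Apaf1 stood at 0.642 times Casp9 (E16.5), 0.977 (P1), 0.773 (P3), 0.517 (P7), 0.384 (P14), then 0.375 (P28).

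**Figure D3:**
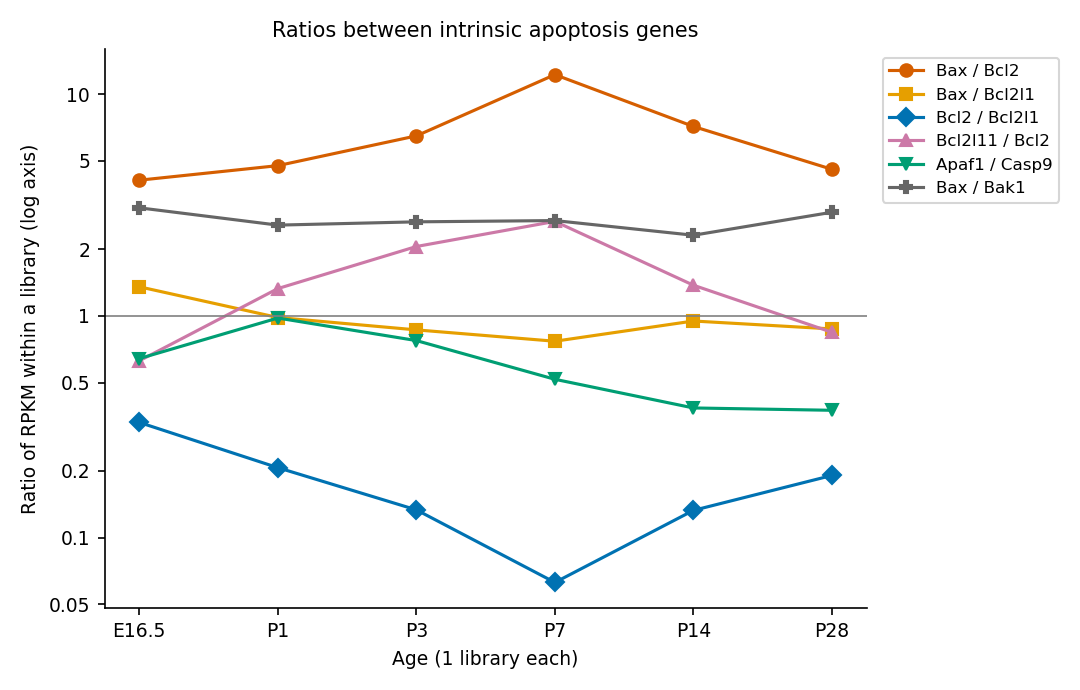
Ratio of the RPKM of 2 genes within each library on a log axis, for 6 pairs over the 6 ages (1 library per age). Bax over Bcl2 and Bcl2l11 over Bcl2 peak at P7 (12.2 and 2.67), Bcl2 over Bcl2l1 is lowest there (0.0627), Apaf1 over Casp9 is highest at P1 (0.977) and lowest at P28 (0.375), and Bax over Bak1 stays between 2.31 and 3.07.

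Summed over the 9 genes the level was 94.5 (E16.5), 78.3 (P1), 84.8 (P3), 74.3 (P7), 48.2 (P14) and 44.0 RPKM (P28). The 3 pro-survival genes made up between 51.7% of this sum (E16.5) and 59.4% (P14), and the 2 effectors between 22.3% (P3) and 29.2% (E16.5). Mcl1, Bcl2l1 and Bax filled the 3 highest places at every age. Bax ranked above Bcl2l1 only at E16.5, and at P1, P14 and P28 these neighbours did not differ beyond counting error. At P28 the lowest 4 genes were Bcl2, Bbc3, Bcl2l11 and Apaf1, between 1.25 and 1.74 RPKM. The counting intervals of neighbours in this order overlapped.

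Other genes of the pathway did not all fall. Of 38 further genes listed for the pathway, 27 reached 1 RPKM and were tested: 10 fell, 4 rose and 13 did not pass, and the median slope was -0.09. Over all tested genes 29.9% fell and 15.2% rose, so these shares were near those of all genes. Casp6, an effector caspase, was 2.45 (E16.5), 2.81 (P1), 2.31 (P3), 1.19 (P7), 0.472 (P14) and 0.474 RPKM (P28). It was lower at both late ages than at any earlier one, and it fell (slope -0.31 ± 0.06, adjusted p = 0.00549). Xiap, which encodes an inhibitor of caspases, rose (slope 0.45 ± 0.05, adjusted p = 0.00161). It was 8.05 (E16.5), 13.7 (P1), 15.7 (P3), 20.01 (P7), 34.6 (P14) and 45.0 RPKM (P28), and so higher at every step. Casp6 and Xiap passed in the same direction under every alternative in which they were tested.

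**Figure D4:**
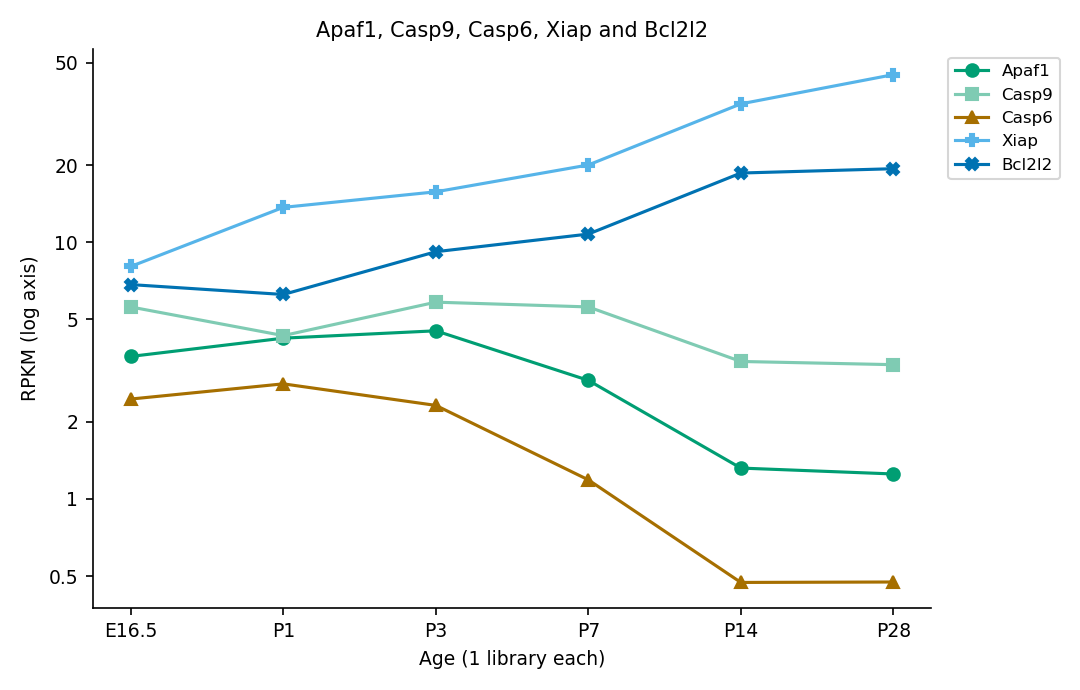
RPKM on a log axis of Apaf1, Casp9, Casp6, the caspase inhibitor Xiap and the pro-survival gene Bcl2l2 at the 6 ages (1 library per age). Casp6 is at 2.81 RPKM at P1 and 0.472 at P14, while Xiap reaches 45.0 and Bcl2l2 19.4 at P28.

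Among other Bcl2 family genes, Bcl2l2, which encodes the pro-survival protein Bcl-w, rose against the course of Bcl2 and Mcl1. It was 6.84 (E16.5), 6.26 (P1), 9.19 (P3), 10.8 (P7), 18.6 (P14) and 19.4 RPKM (P28) (slope 0.33 ± 0.05, adjusted p = 0.00357). At P14 and P28 it was above Bcl2l1 (8.65 and 9.14 RPKM), and at P28 it was also above Mcl1 (14.9 RPKM). Of the BH3-only genes, Bad and Bid fell (slopes -0.21 and -0.23) and Bmf rose (slope 0.22), with Bmf lowest at P1 (0.657 RPKM) and highest at P28 (3.40 RPKM). The call of Bmf held under 8 of 12 alternatives, and it was lost with no filter (adjusted p = 0.0683) and without P1 (0.0780), P14 (0.0779) or P28 (0.161). Hrk did not pass and was at 1.41 RPKM at P7 and 0.349 at P28. Pmaip1 reached at most 0.186 RPKM and Bik 0.749 RPKM. The pro-survival gene Bcl2l10 was at 0 RPKM at E16.5 and P1 and highest at P14, at 0.707 RPKM. Bok, another effector gene, did not pass (slope 0.02 ± 0.07, adjusted p = 0.880). It was 1.54 (E16.5), 2.02 (P1), 3.76 (P3), 2.55 (P7), 1.69 (P14) and 2.11 RPKM (P28). The Bcl2a1 genes, which are typical of blood cells, were listed at 0 at E16.5, P7, P14 and P28.

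Upstream of the BH3-only genes, Trp53, which encodes p53, fell (slope -0.30 ± 0.05, adjusted p = 0.00457). It read 11.1 (E16.5), 10.9 (P1), 7.74 (P3), 5.86 (P7), 3.43 (P14) and 4.27 RPKM (P28). E2f1, a cell cycle factor, fell most steeply of the list (slope -0.93 ± 0.15, adjusted p = 0.00345), with 23.4 (P3), 3.63 (P7) and 0.548 RPKM (P14). The release factors Diablo and Aifm1 fell (slopes -0.16 and -0.13), as did Fadd and Casp8 of the death receptor branch (slopes -0.21 and -0.33). The call of Aifm1 held under 2 of 13 alternatives and that of Diablo under 8. Exons of Bcl2l2 and Diablo overlap another annotated gene on the same strand (Gm20521 and Gm49027), and those of Bad, Diablo and Fadd overlap genes on the other strand, so their reads are uncertain in the same way. Cycs, the cytochrome c gene, was between 0.201 and 0.610 RPKM and was not tested. It has near-identical copies elsewhere in the genome, which makes its level uncertain.

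**Figure D5:**
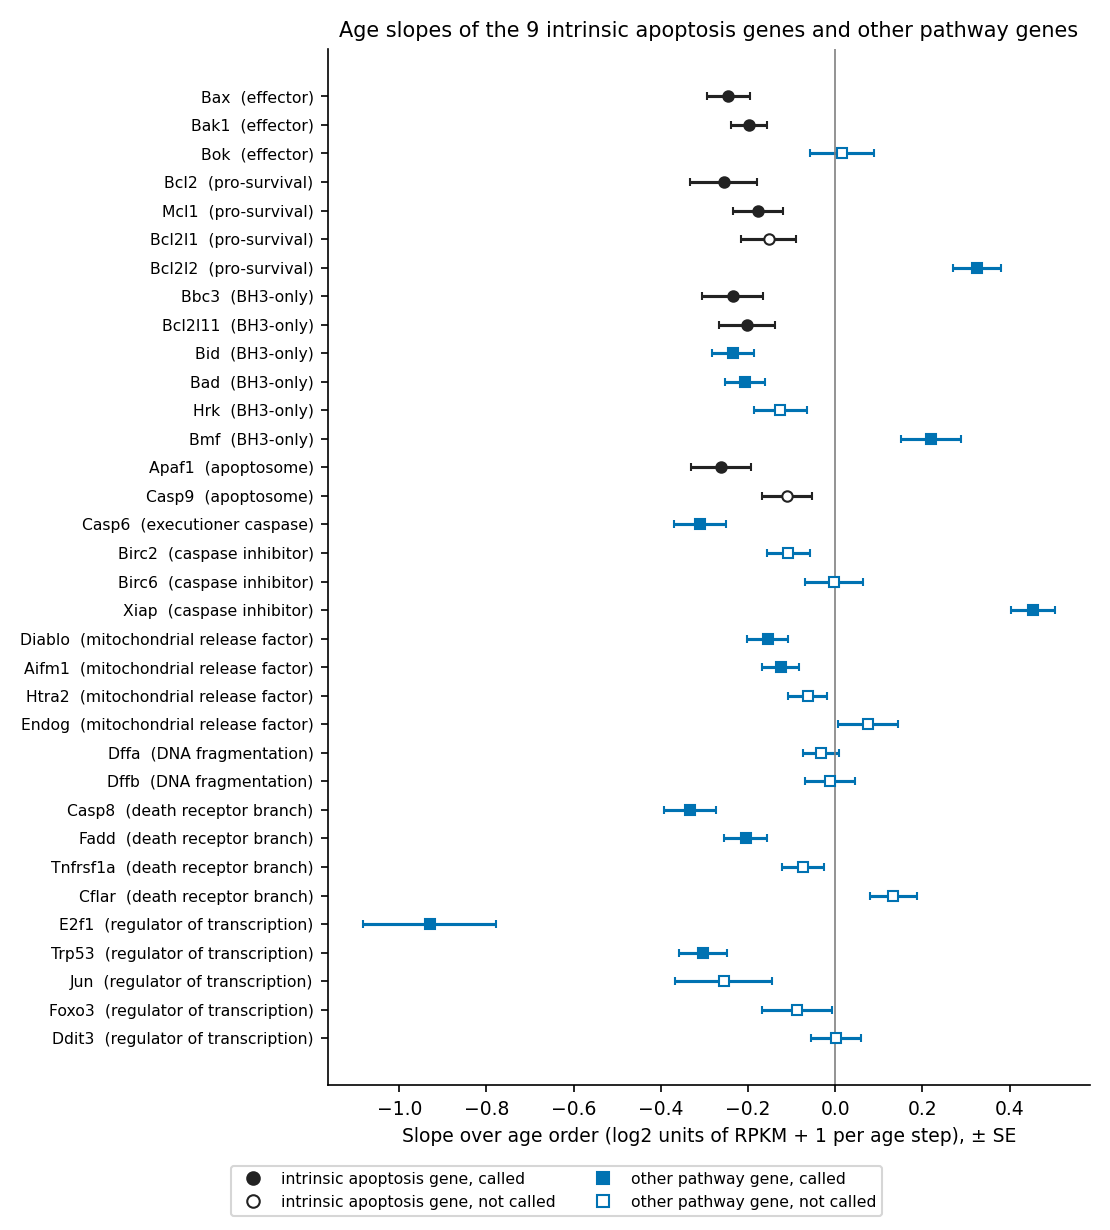
Slope over age order with its SE (log2 units of RPKM + 1 per age step, limma, 6 libraries) for the 9 genes (circles) and other tested genes of the pathway (squares), grouped by role, with filled symbols for adjusted p under 0.05. All 9 circles lie left of 0 between -0.26 (Apaf1) and -0.11 (Casp9), the squares from -0.93 (E2f1) to 0.45 (Xiap).

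Many promoters of the 9 genes were rich in G and C, a property that the choice of genes did not use. RefSeq on build GRCm38.p6 holds 14 promoters of these genes, each of 300 bases with 250 before the start. Their GC content had a median of 68.5% and a range of 49.3% to 78.0%, against a median of 52.7% over 32851 promoters of all genes. That background was not limited to genes that reached 1 RPKM, as all 9 did, and no comparison among such genes was made. The dinucleotide CG occurred at a median of 29 sites per promoter, against 7 over all. More than 70% GC was found in 7 of the 14 and in 9.09% of all promoters. These 7 belong to 4 genes (Bcl2, Bcl2l11, Bbc3 and Apaf1), since 3 of the 9 genes have several starts, and a pair of the Bbc3 promoters overlap. Stretches of 80 bases just before the start are shown with CG in capitals for Apaf1 (chr10:91082744-91082823, minus strand) and the downstream of 2 starts of Bcl2l11 (chr2:128127495-128127574, plus strand), the pair with the most alike courses, and for Bcl2 (chr1:106714291-106714370, minus strand), whose course stood apart.
Apaf1: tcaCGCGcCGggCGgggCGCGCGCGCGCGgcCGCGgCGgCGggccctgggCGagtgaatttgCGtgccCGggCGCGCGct
Bcl2l11: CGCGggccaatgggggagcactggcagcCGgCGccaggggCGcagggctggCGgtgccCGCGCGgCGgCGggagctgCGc
Bcl2: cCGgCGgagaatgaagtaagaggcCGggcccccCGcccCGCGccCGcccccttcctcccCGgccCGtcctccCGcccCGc

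CG dinucleotides numbered 20 in the Apaf1 stretch, 12 in that of Bcl2l11 and 11 in that of Bcl2. The stretch before the upstream start of Bcl2l11, not shown, held 8, so these counts do not set Bcl2 apart from Bcl2l11. The letters TTTCCCGC, TTTCGCGC, TTTGGCGC and TTTGCCGC, forms of the E2F motif, were the one motif searched, on both strands of all 14 promoters, because E2f1 was the steepest gene of the pathway list. One of the 14 held a match, TTTCGCGC on the strand opposite to Bcl2l1 in one of its promoters, with the match beginning at position -145 from the start, and 2.26% of all promoters held a match. The 80 bases around it (chr2:152830819-152830898, minus strand of the chromosome) are shown with the match, in gene direction, in capitals.
Bcl2l1: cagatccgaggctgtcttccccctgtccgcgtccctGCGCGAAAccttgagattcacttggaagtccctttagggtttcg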

How the data were processed

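The labels' protocols describe dissected retinas, RNA taken up in Trizol, bead-purified messenger RNA, and double-stranded cDNA that was fragmented before Illumina libraries were made with a ChIP DNA kit. The submitters' processing notes name bcl2fastq (version 2.17.1.14) and the mouse build mm9. No source used here gives the aligner, counting tool, annotation or strand. The authors deposited RPKM values, per the file headers, for 30042 genes in 6 libraries. The number of unused columns of sample values was 0.

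Tests used log2(RPKM + 1), a scale on which changes of low genes look smaller than they are. The 15272 genes with a highest value of at least 1 RPKM were tested with limma 3.58.1 in R 4.3.3 (lmFit, eBayes with trend=TRUE): a slope over age order from 1 to 6 with 4 residual degrees of freedom, and a quadratic term with 3, two-sided, Benjamini-Hochberg adjusted over all tested genes, threshold 0.05. Differences between 2 ages have no test and were counted at 1 log2 unit.

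Whole reads were recovered from the RPKM values: steps of low values gave relative depths, and the 6 values of each of the 9 genes then fell on whole multiples of 1 step within 0.0014 reads (tolerance 0.02). Total reads are estimates from lengths of single-transcript reference genes. Intervals are exact at 95% (Poisson for a value, binomial for a ratio) and cover counting error only. No count test was run. Sequences are from RefSeq, GRCm38.p6, and no coordinates of that build were joined to the mm9-based values.

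The 9 genes, the pathway list, the markers and the tests were chosen with earlier results of these data known. Named genes are the 9, Casp6, Cycs, Xiap and Trp53, called pathway genes, and the gene with the course most like each of the 9. Some genes that this rule names are not reported here. Hrk, Pmaip1, Bik, Bcl2l10, Bok and the Bcl2a1 genes were named after their values were seen, to complete the Bcl2 family genes of the pathway list. The alternatives were another pseudocount (0.1), no filter and a filter at 5 RPKM, 2 rescalings, age in log2 days after conception with birth at day 19, a term for the form of title, and leaving out each library.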

Additional observations from a re-analysis of the deposited data

How the results depend on the processing

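The number of the 9 genes that fell, 7 as deposited, was 4 without a filter on low values (18.2% of all genes then tested fell) and 4 with the filter at 5 RPKM (37.8%), which left Bcl2l11 and Apaf1 untested. It was 3 after median-of-ratios rescaling and 1 with a common total without the 50 highest genes, and leaving out 1 library gave 2 to 7. It stayed within 1.5 times with a pseudocount of 0.1, age in log2 days or a term for the form of title. No alternative gave a gene of the 9 that rose, and no slope of the 9 reversed. With the filter at 5 RPKM 6 other pathway genes fell, against 10, which is partly a matter of construction since fewer genes are tested. Over all genes, 1403 rose with that filter, against 2326, and 2686 fell with the common total, against 4571. Leaving out 1 library gave 1544 to 2179 that rose and 2945 to 4248 that fell, both lowest without P14. Rescaling moved the share of rising genes among all called from 33.7% to 47.1% (median of ratios) and 54.5% (common total). Steps between neighbouring ages of at least 1 log2 unit numbered 1 as deposited, 3 with a pseudocount of 0.1 and 0 with the common total. The count with the smaller pseudocount is a matter of scale, since an added 1 shrinks steps of low genes. Of 135 step values of the 9 genes under that pseudocount and the 2 rescalings, 9 moved by their counting error or more. Either other filter left each tested slope of the 9 genes as it was, so there only the adjusted p moved. The cause of the other shifts was not tested.

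Curvature, never past the threshold as deposited, changed sign for Bax with the common total (-0.0359), and leaving out 1 library gave -0.12 (without E16.5) to 0.149, also negative without P28 (-0.02), for Bak1 in log2 days (0.0461) and with the title term (0.0693), for Bbc3 without E16.5 (-0.35, the other libraries left out giving up to 0.297) and for Casp9 with the title term (0.0078). No paired analysis was possible because each age has 1 library. Depth limited Bak1 and Bbc3 most, at 42 and 43 reads at P28. Replicate spread at an age is unknown.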
